A study of Mus musculus with 6 samples.

Results

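The genes described here encode integrins and the proteins that join them to the actin cytoskeleton at focal adhesions. They were taken from a list of names, 19 integrin subunits and 17 focal adhesion proteins. Of these 36 genes, 33 were found by symbol among the 19505 genes on the array, each with 1 probe set. Itga1, Itga10 and Ptk2 are not analysed here. Expression was measured on 6 Affymetrix Clariom S arrays, with 2 arrays for each of 3 lines derived from melan-a, an immortalized mouse melanocyte line labelled C57BL/6J. The mKitK641E(T) line (T below) and the mKitK641E(PT) line (PT below) are labelled as melanoma transformed by c-kit, the receptor tyrosine kinase gene Kit, with the K641E substitution. The line mVec was transduced with the control vector CD516B2 and is labelled as melanocytes. All lines were grown in RPMI with 10% fetal bovine serum and were left untreated. The titles add "C3#" for T and "hi exp" for PT; no source used here explains T, PT or these words.

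Each group is 1 line, and nothing in the labels says that its 2 arrays came from separate cultures, so the p-values below measure only the spread between arrays of a line. T and PT are both set against the same mVec arrays, so these comparisons are not independent. An array counted a gene as above background when its log2 value exceeded what 95% of the 5222 negative controls stayed under, a limit between 8.74 and 9.16 on the 6 arrays, and 29.0% to 32.6% of gene probe sets passed it. Kit read 4.53 and 5.18 in T, 4.53 and 3.84 in PT, against 4.68 and 4.97 in mVec, at background on every array. Its difference was 0.03 (95% interval -0.64 to 0.71) for T minus mVec and -0.63 (-1.31 to 0.04) for PT minus mVec, and limma called neither. No rise of Kit was thus measured in the lines labelled with c-kit, so this probe set does not bear those labels out. T and PT are therefore called the Kit-labelled lines, and each direction below is between lines as labelled. Which part of the transcript the probe set covers was not examined. Of 10 melanocyte markers, Mitf was above background in T and none was in PT or mVec. Tyr, Tyrp1, Dct, Pmel, Mlana and Sox10 were at background on every array, which goes against the labelled cell type.

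Integrins are receptors of 1 alpha and 1 beta subunit that cross the plasma membrane. The alpha subunit largely sets which ligand is bound, such as collagen, laminin or proteins with an RGD motif, and the beta tail binds the adaptors talin and kindlin, which switch the receptor on. Talin and vinculin tie it to actin, alpha-actinin and filamin crosslink the filaments, and the kinase Ilk with Lims1 (PINCH1) and Parva (alpha-parvin) forms a further link. In melanocytes and melanoma cells, integrins hold the cells to basement membrane and dermal matrix and take part in migration.

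Most of these genes were lower in both Kit-labelled lines than in the vector line. In T, 21 of 33 were called lower and 0 higher by limma (Benjamini-Hochberg adjusted p under 0.05 over all 22206 gene probe sets), and 21 and 0 at an unadjusted p under 0.05. Over all gene probe sets, 15.5% were called lower and 16.9% higher in T. In PT, 22 of 33 were called lower and 1 higher, beside 18.0% and 17.9% of all gene probe sets. At an unadjusted p under 0.05, 23 were lower and 2 higher in PT. The median log2 difference of the 33 genes was -1.07 for T minus mVec and -1.15 for PT minus mVec, while that of all gene probe sets was 0.01 and 0.08. Brighter probe sets were called more often. Among the 7836 above background on both arrays of at least 1 group, 64.0% were called in T (27.4% lower, 36.6% higher). In PT, 69.3% of them were called (32.0% lower, 37.2% higher). Of the 33 genes, 23 were above background in this way, with 15 lower and 0 higher in T, and 16 lower and 1 higher in PT. Their share called in either direction was near that of all such probe sets, while the direction differed. In each comparison, 5 of the genes called lower were at background in both lines.

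Markers of other cell types moved with these genes in part. Of 9 measured fibroblast markers, 7 were called lower and 1 higher in each Kit-labelled line, and their summed level, as log2 of the sum, lay between 12.54 and 12.71 in T, 11.86 and 12.18 in PT, against 17.44 and 17.59 in mVec. Pdgfrb, Col1a1, Col3a1, Dcn, Fap and Postn were above background in mVec, while Lum and Thy1 were at background on every array. Col1a2, the 1 marker called higher, had means of 9.23 in T, 9.22 in PT, against 5.07, a background value, in mVec (log2 difference 4.16 in T and 4.15 in PT). Among 5 smooth muscle markers only Acta2 was above background in any line. Of 4 endothelial markers only Cdh5 was, in mVec alone. No leukocyte (5 measured), keratinocyte (5) or mast cell (5) marker was above background on any array. Postn, Col3a1, Col1a1 and Col1a2 are also counted among the integrin ligands described here, where Col1a2 is again called higher in both lines. Acta2, Tagln and Cnn1 are counted among the SRF and MRTF targets, and Itgam and Itgb2 among the other integrins. The marker and list counts are thus not separate. The part of the fibroblast markers in the results was not tested. In bulk RNA, fewer cells of a type and less RNA in each cell cannot be told apart.

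**Figure D1:**
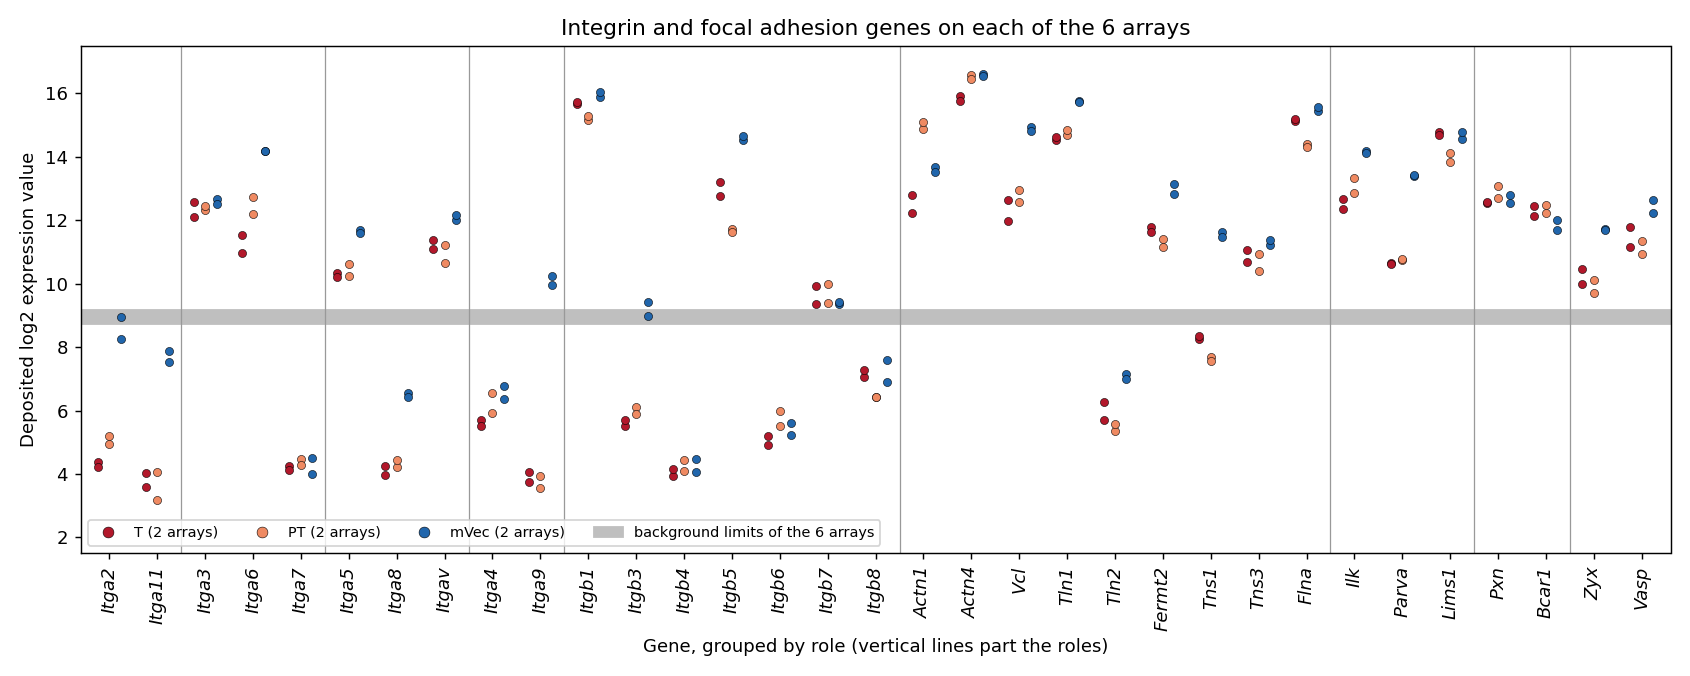
Deposited log2 expression values (vertical axis) of the 33 measured genes, grouped by role along the horizontal axis, with 1 point for each of the 2 arrays of T, PT and mVec. The grey band spans the background limits of the 6 arrays, 8.74 to 9.16, and 9 genes lie under their limit on every array.

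Of the 33 genes, 23 were above background on both arrays of at least 1 line, with 21 in T, 21 in PT and 23 in mVec. The genes Itga2, Itga4, Itga7, Itga8, Itga11, Itgb4, Itgb6, Itgb8 and Tln2 were at background on every array. Itgb3 was above background on 1 mVec array. Differences between probe sets at background are given as log2 values without a fold, and a gene above background in 1 group and below it in the other has a fold that is a lower bound. With a stricter limit, the 99th percentile of the negative controls, 12 genes were above background on both arrays of a line.

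Among the alpha subunits, Itga9 and Itga6 showed the largest falls of those above background. Itga9, which pairs with beta1 and binds tenascin and osteopontin, read 4.06 and 3.76 in T, 3.94 and 3.55 in PT, against 10.24 and 9.97 in mVec. Both Kit-labelled lines were at background and mVec was above it, without overlap. Itga9 was at least 2.42-fold lower in T than in mVec (log2 difference -6.20 ± 0.23, standard error of the limma fit, adjusted p = 9.65e-08). In PT it was at least 2.13-fold lower (-6.36 ± 0.23, adjusted p = 5.68e-08). The bounds are small because mVec itself lay only slightly above its limit.

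Itga6, the alpha6 subunit of laminin receptors, read 10.98 and 11.52 in T, 12.74 and 12.20 in PT, against 14.18 and 14.20 in mVec. The 3 lines did not overlap, with T lowest and mVec highest. The gene was 7.67-fold lower in T (log2 difference -2.94 ± 0.26, limma adjusted p = 1.82e-05) and 3.30-fold lower in PT (-1.72 ± 0.26, adjusted p = 0.000501). The other laminin-binding alpha subunits were not called. Itga3, also a laminin receptor subunit, had values from 12.11 to 12.68 over the 6 arrays, with a T minus mVec difference of -0.26 (95% interval -0.77 to 0.25) and a PT minus mVec difference of -0.20 (-0.71 to 0.31). Itga7, known from muscle, was at background throughout, between 3.99 and 4.52, and was not called.

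The 3 alpha subunits listed here as RGD-binding were called lower in both lines. Of all gene probe sets, 15.5% were called lower in T and 18.0% in PT. Itga2b is not among these 3 and is counted with the other integrins. It was at background on every array and was called in neither comparison with mVec. Itga5, which with beta1 forms the classical fibronectin receptor, read 10.33 and 10.21 in T, 10.25 and 10.64 in PT, against 11.70 and 11.61 in mVec. It was 2.61-fold lower in T (-1.38 ± 0.22, limma adjusted p = 0.000691) and 2.31-fold lower in PT (-1.21 ± 0.22, adjusted p = 0.0014), with mVec above all 4 arrays of the Kit-labelled lines. Itgav, the alpha subunit of several vitronectin receptors, read 11.08 and 11.39 in T, 10.66 and 11.21 in PT, against 12.00 and 12.17 in mVec. It was 1.80-fold lower in T (-0.85 ± 0.25, adjusted p = 0.0242) and 2.22-fold lower in PT (-1.15 ± 0.25, adjusted p = 0.00426), again without overlap with mVec. The Itgav call in T was lost with each array centred on its median (adjusted p = 0.0752) and without T replicate 1 (0.116), mVec replicate 1 (0.0705) or mVec replicate 2 (0.134), and its adjusted p over 15 alternatives ranged from 0.00535 to 0.134. Itga8, the nephronectin-binding subunit, was at background everywhere, with means of 4.11 in T, 4.33 in PT, against 6.50 in mVec, and was called lower in both.

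The collagen-binding subunits Itga2 and Itga11 were also called lower while at background on every array. Itga2 had means of 4.31 in T, 5.07 in PT, against 8.61 in mVec, and 1 of its mVec arrays, at 8.96, lay just under its limit of 9.06. Itga11, typical of fibroblasts, had means of 3.80 in T, 3.61 in PT, against 7.71 in mVec. Itga4, the alpha4 subunit that binds Vcam1 and fibronectin, was at background too, with means of 5.61 in T, 6.23 in PT, against 6.57 in mVec. Its call in T (adjusted p = 0.0194) was lost after quantile normalization (0.0754) and without T replicate 2 (0.101) or mVec replicate 1 (0.149), with a range over 14 alternatives from 0.0083 to 0.149.

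Of the 7 beta subunits, 2 were called lower in T and 4 in PT. These are 28.6% and 57.1%, beside 15.5% and 18.0% of all gene probe sets. Among probe sets above background 27.4% and 32.0% were lower, so the share in T was near that level. Itgb5, the partner of alphav in a vitronectin receptor, read 12.76 and 13.21 in T, 11.73 and 11.63 in PT, against 14.52 and 14.66 in mVec. It was 3.04-fold lower in T (-1.61 ± 0.22, limma adjusted p = 0.000336) and 7.52-fold lower in PT (-2.91 ± 0.22, adjusted p = 4.74e-06). Itgb3, the other classical partner of alphav, read 5.51 and 5.70 in T, 6.11 and 5.88 in PT, against 8.997 and 9.42 in mVec, where only the last value passed its limit. It was lower by at least 1.30-fold in T (-3.61 ± 0.23, adjusted p = 1.95e-06) and by at least 1.15-fold in PT (-3.22 ± 0.23, adjusted p = 2.75e-06). Thus Itgav and both of these partners were lower in both Kit-labelled lines.

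Itgb1, the beta subunit shared by most matrix-binding integrins, was called lower in PT and not in T. It read 15.68 and 15.74 in T, 15.17 and 15.29 in PT, against 15.88 and 16.05 in mVec. The lines did not overlap, with PT lowest and mVec highest. The T minus mVec difference was -0.26 (95% interval -0.71 to 0.20), while in PT it was called 1.67-fold lower (-0.74 ± 0.20, limma adjusted p = 0.0156). That call in PT was lost with each array centred on its median (adjusted p = 0.0603) and without PT replicate 1 (0.0807) or mVec replicate 2 (0.116), and its adjusted p over 15 alternatives ranged from 0.000192 to 0.116. The difference between the lines, T minus PT, was 0.48 ± 0.20 and did not pass (adjusted p = 0.191).

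Itgb7, known as a leukocyte subunit, was slightly above background on all 6 arrays, from 9.35 to 10.01, and was called in neither comparison. The epithelial subunits Itgb4 and Itgb6 were at background on every array, with values from 3.95 to 5.98, and were not called. Itgb8, an activator of latent TGF-beta with alphav, had background means of 7.18 in T, 6.43 in PT, against 7.25 in mVec. It was called lower in PT (adjusted p = 0.0293), a call lost in 5 of 14 alternatives: centring on the median (0.0829), quantile normalization (0.208) and the fits without PT replicate 1 (0.104), PT replicate 2 (0.107) or mVec replicate 1 (0.267), within a range from 0.0108 to 0.267. The integrins outside the 36 genes, mostly leukocyte and platelet subunits (Itga2b, Itgad, Itgae, Itgal, Itgam, Itgax, Itgb2 and Itgb2l), were at background in all 3 lines. Limma called 0 of these 8 in either comparison with mVec, and 1 was higher in each at an unadjusted p under 0.05. In each comparison 1 was called higher after median centring and with the replicate block, and also without either T array for T and without PT replicate 2 for PT.

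Among activators and actin links, 7 of 9 genes were lower in T, and in PT 6 were lower and 1 higher. The shares lower were 77.8% in T and 66.7% in PT, beside 15.5% and 18.0% of all gene probe sets. The share higher in PT was 11.1%, beside 17.9%. Among probe sets above background, 27.4% in T and 32.0% in PT were lower, and 37.2% were higher in PT. Talin-1, encoded by Tln1, read 14.53 and 14.63 in T, 14.69 and 14.86 in PT, against 15.76 and 15.72 in mVec. It was 2.23-fold lower in T (-1.16 ± 0.20, limma adjusted p = 0.00128) and 1.95-fold lower in PT (-0.96 ± 0.20, adjusted p = 0.00345). Its relative Tln2 was at background, with means of 5.99 in T, 5.47 in PT, against 7.07 in mVec, and was called lower in both. Fermt2, kindlin-2, read 11.78 and 11.64 in T, 11.15 and 11.41 in PT, against 12.82 and 13.14 in mVec. It was 2.41-fold lower in T (-1.27 ± 0.22, adjusted p = 0.00131) and 3.25-fold lower in PT (-1.70 ± 0.22, adjusted p = 0.000157). Both integrin activators above background were thus lower in both lines, with no overlap with mVec.

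Vinculin (Vcl), which binds talin and actin and strengthens adhesions under load, read 12.64 and 11.98 in T, 12.58 and 12.95 in PT, against 14.93 and 14.83 in mVec. T and PT overlapped each other and lay well below mVec. Vcl was 5.94-fold lower in T (-2.57 ± 0.26, limma adjusted p = 4.22e-05) and 4.34-fold lower in PT (-2.12 ± 0.26, adjusted p = 0.00012). Tensin-1 (Tns1), an actin-binding protein of mature fibrillar adhesions, read 8.25 and 8.36 in T, 7.68 and 7.57 in PT, against 11.63 and 11.48 in mVec. It was at background in both Kit-labelled lines, lower by at least 6.59-fold in T (-3.25 ± 0.20, adjusted p = 1.67e-06) and by at least 5.82-fold in PT (-3.93 ± 0.20, adjusted p = 3.82e-07). Tns3, its relative, was not called: the difference was -0.42 in T (95% interval -0.98 to 0.13) and -0.62 in PT (-1.18 to -0.07, adjusted p = 0.0798), and 6 of its 15 alternatives called it lower in PT, with adjusted p from 0.0296 to 0.411 over all 15.

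Among the actin crosslinkers, Actn1 was lower in T and higher in PT. Actn1, alpha-actinin-1, read 12.81 and 12.24 in T, 14.88 and 15.09 in PT, against 13.67 and 13.53 in mVec. It was 2.10-fold lower in T (-1.07 ± 0.24, limma adjusted p = 0.00645) and 2.62-fold higher in PT (1.39 ± 0.24, adjusted p = 0.00114), the 1 call upward among the 33 genes. Actn4, alpha-actinin-4, read 15.92 and 15.77 in T, 16.59 and 16.47 in PT, against 16.61 and 16.54 in mVec. The T arrays lay below those of PT and mVec, which overlapped. It was 1.66-fold lower in T (-0.73 ± 0.20, adjusted p = 0.0178), and its PT minus mVec difference was -0.05 (95% interval -0.50 to 0.40). The Actn4 call in T was lost with each array centred on its median (adjusted p = 0.0643) and without T replicate 2 (0.0761), mVec replicate 1 (0.108) or mVec replicate 2 (0.0762), in a range over 15 alternatives from 0.000115 to 0.108.

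Filamin A (Flna), which crosslinks actin and binds beta tails, read 15.15 and 15.20 in T, 14.41 and 14.31 in PT, against 15.45 and 15.57 in mVec. The lines did not overlap, with PT lowest and mVec highest. Flna was 2.21-fold lower in PT (-1.15 ± 0.20, limma adjusted p = 0.0011), and the T minus mVec difference of -0.33 (95% interval -0.78 to 0.11) did not pass.

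Of the Ilk, Lims1 and Parva complex, Ilk and Parva were called lower in both lines and Lims1 in PT. Parva read 10.65 and 10.62 in T, 10.75 and 10.80 in PT, against 13.41 and 13.44 in mVec. The replicates were close and both Kit-labelled lines lay far below mVec, with Parva 6.92-fold lower in T (-2.79 ± 0.19, limma adjusted p = 3.59e-06) and 6.28-fold lower in PT (-2.65 ± 0.19, adjusted p = 3.44e-06). Ilk read 12.66 and 12.37 in T, 12.85 and 13.33 in PT, against 14.18 and 14.14 in mVec. It was 3.12-fold lower in T (-1.64 ± 0.23, adjusted p = 0.000389) and 2.09-fold lower in PT (-1.06 ± 0.23, adjusted p = 0.00491).

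Lims1 read 14.77 and 14.70 in T, 14.13 and 13.84 in PT, against 14.56 and 14.80 in mVec, with T and mVec overlapping. The T minus mVec difference was 0.05 (95% interval -0.43 to 0.54). In PT it was called 1.62-fold lower (-0.70 ± 0.21, limma adjusted p = 0.0285), a call lost with each array centred on its median (adjusted p = 0.0833) and without PT replicate 2 (0.156), mVec replicate 1 (0.0612) or mVec replicate 2 (0.184), in a range over 15 alternatives from 0.00189 to 0.184.

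The signalling scaffolds were not called in either line. Pxn, paxillin, ranged from 12.56 to 13.09 over the 6 arrays, with differences of -0.12 in T (95% interval -0.62 to 0.37) and 0.21 in PT (-0.29 to 0.71). Bcar1, the scaffold p130Cas, read 12.14 and 12.44 in T, 12.22 and 12.49 in PT, against 11.68 and 12.00 in mVec, without overlap between either Kit-labelled line and mVec. Its differences of 0.45 in T (-0.06 to 0.96, limma adjusted p = 0.183) and 0.51 in PT (0.001 to 1.02, adjusted p = 0.117) did not pass. In PT it passed under centring of the arrays on their medians (adjusted p = 0.0381) and among probe sets above background (0.0433), in a range over 15 alternatives from 0.0381 to 0.477.

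Both actin assembly factors were called lower in both lines. Zyx, zyxin, which recruits actin-polymerizing proteins to strained filaments, read 9.99 and 10.48 in T, 9.71 and 10.13 in PT, against 11.73 and 11.70 in mVec. It was 2.79-fold lower in T (-1.48 ± 0.24, limma adjusted p = 0.000971) and 3.47-fold lower in PT (-1.80 ± 0.24, adjusted p = 0.000224). Vasp, a filament elongation factor bound by zyxin, read 11.16 and 11.80 in T, 10.94 and 11.35 in PT, against 12.22 and 12.65 in mVec. The mVec arrays were above the others for both genes, and Vasp was 1.93-fold lower in T (-0.95 ± 0.28, adjusted p = 0.0257) and 2.43-fold lower in PT (-1.28 ± 0.28, adjusted p = 0.00466). Its call in T was lost with each array centred on its median (adjusted p = 0.0643) and without T replicate 1 (0.152) or mVec replicate 2 (0.179), in a range over 15 alternatives from 0.0067 to 0.179.

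**Figure D2:**
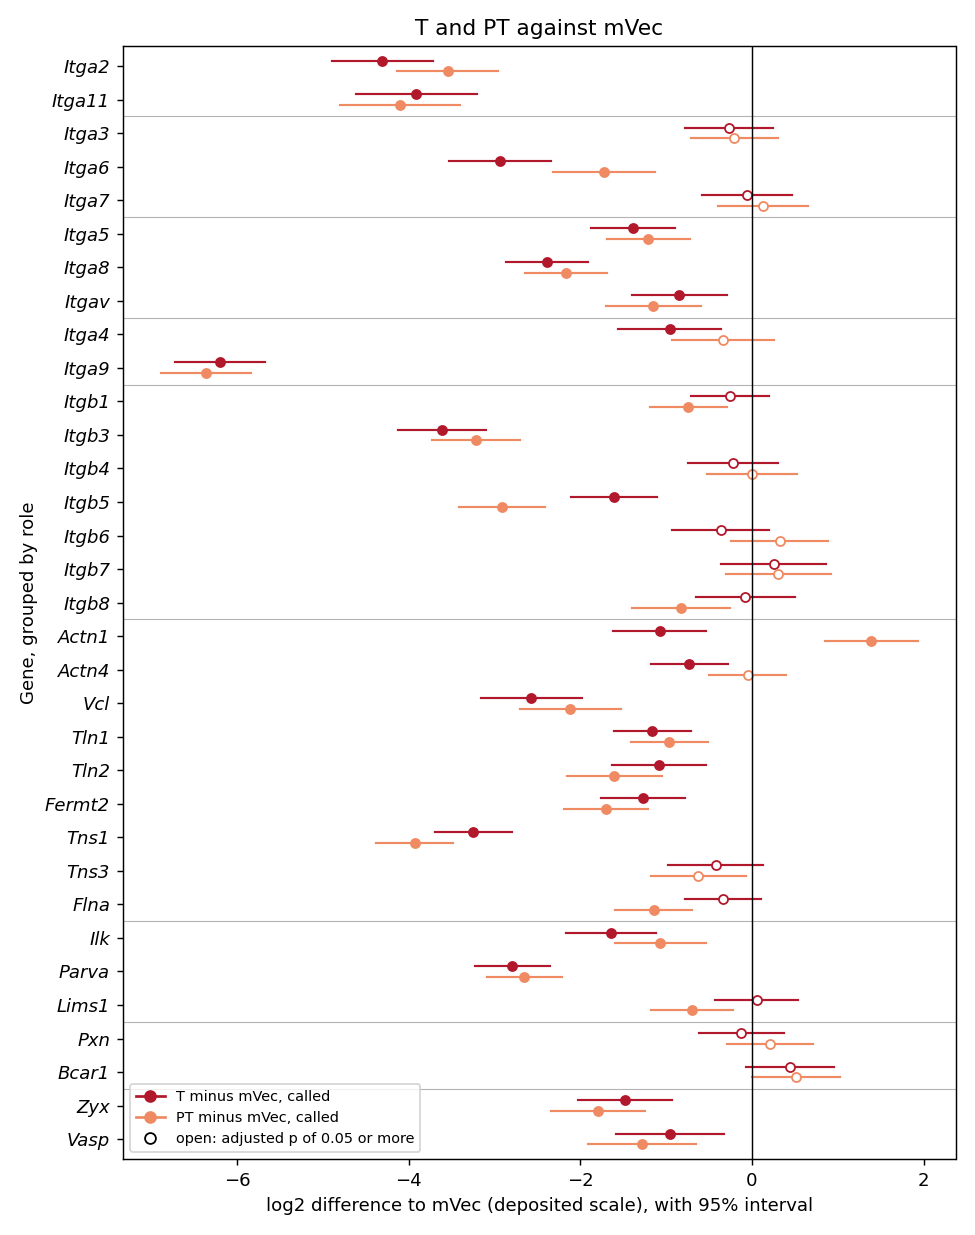
Log2 differences to mVec (horizontal axis, deposited scale) of the 33 genes grouped by role, for T (upper mark of each pair) and PT (lower mark), with 95% intervals from the limma fit. Filled marks passed an adjusted p of 0.05, and all of them lie left of 0 except Actn1 in PT at 1.39.

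Set directly against each other, the lines differed in 4 of the 33 genes, with 2 higher and 2 lower in T than in PT. Of all gene probe sets 5.67% were higher and 2.70% lower, and of those above background 12.3% and 5.68%. All 4 were among the 23 genes above background, a share near the 18.0% called of all such probe sets. Actn1 differed most, being 5.51-fold lower in T (-2.46 ± 0.24, limma adjusted p = 0.00096), and it passed in all 15 alternatives, with adjusted p from 5.26e-06 to 0.0145. Itga6 was 2.32-fold lower in T than in PT (-1.22 ± 0.26, adjusted p = 0.0226). Itgb5 was 2.47-fold higher in T (1.30 ± 0.22, adjusted p = 0.00856), and Flna 1.76-fold higher (0.81 ± 0.20, adjusted p = 0.036). The arrays of T and PT did not overlap for any of these 4 genes. With 2 arrays a line this nearly follows from the call, so it adds no support, here or for the genes called against mVec. Arrays of T and PT also did not overlap for genes not called between them, such as Itgb1, Actn4 and Lims1. Itga6 did not pass without T replicate 1 (adjusted p = 0.0863) or PT replicate 1 (0.163), over a range from 0.00281 to 0.163. The Itgb5 call was lost without T replicate 2 (0.0582), PT replicate 1 (0.0574) or PT replicate 2 (0.0589), over a range from 0.00051 to 0.0589. The Flna call was lost without any 1 of the 6 arrays, with adjusted p of 0.0697 without either mVec array, 0.0702 and 0.134 without T replicate 1 and 2, and 0.129 and 0.138 without PT replicate 1 and 2, over a range from 0.00113 to 0.138.

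**Figure D3:**
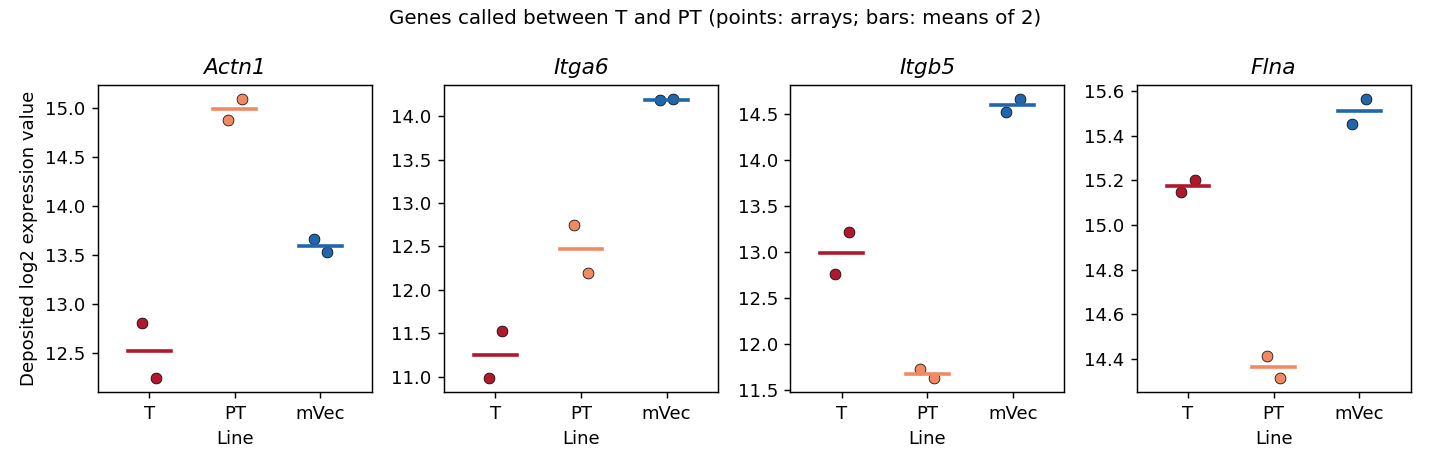
Deposited log2 values (vertical axes, which do not start at 0 and differ between panels) of the 4 genes called between T and PT, with a point for each array and a bar at the mean of 2 arrays in T, PT and mVec. Actn1 lies below mVec in T and above it in PT, Itga6 is lowest in T, and Itgb5 and Flna are lowest in PT.

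Promoter windows from RefSeq (mouse build GRCm38.p6) were available for 26 of the 33 genes, as 32 windows of 250 bases before and 50 after an annotated start. They were searched on both strands for the CArG box, the site of the actin-regulated factor SRF, for the TEAD element GGAATG and for the AP-1 element TGANTCA. Among all 32851 windows of this length, 1.63% held a CArG box, 14.7% the TEAD element and 7.81% the AP-1 element, while 3, 4 and 4 of the 32 windows did. The CArG box was found at Vcl, Fermt2 and Itgb6, the TEAD element at Vcl, Actn4, Flna and Itgb1, and the AP-1 element at Zyx, Actn4, Itga3 and Itga9. A match is a description of the letters and not evidence of binding. The sequences are shown for Vcl, Fermt2 and Zyx, which were lower in both lines and hold a match. Those of Actn1 and Itgb5, which differed between the lines, are shown too. Itgb5 was also lower in both lines and holds no match, while Itga3 and Itgb6 hold a match and were not called. Whether a match goes with a lower level was not tested. The sequences run 5′ to 3′ on the gene's strand, and capitals mark motif matches, none of which overlap. Each distance is that between the transcript start the window is built on and the gene's annotated start.
Vcl, chr14:20929148-20929447, plus strand, with a CArG box and then a TEAD element, at 15 bases from the gene's start: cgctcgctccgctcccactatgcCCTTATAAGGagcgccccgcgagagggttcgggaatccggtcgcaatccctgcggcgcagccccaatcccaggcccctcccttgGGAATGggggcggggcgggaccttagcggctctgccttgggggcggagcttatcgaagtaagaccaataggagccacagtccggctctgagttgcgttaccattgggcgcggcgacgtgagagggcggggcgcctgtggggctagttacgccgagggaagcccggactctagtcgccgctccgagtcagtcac
Fermt2, chr14:45530016-45530315, minus strand, with a CArG box, at 245 bases from the gene's start: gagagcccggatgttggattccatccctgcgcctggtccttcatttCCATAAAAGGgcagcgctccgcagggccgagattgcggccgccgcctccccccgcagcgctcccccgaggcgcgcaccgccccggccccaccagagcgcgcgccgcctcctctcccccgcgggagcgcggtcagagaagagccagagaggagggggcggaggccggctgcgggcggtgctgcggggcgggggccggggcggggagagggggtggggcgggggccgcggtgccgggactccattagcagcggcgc
Zyx, chr6:42349578-42349877, plus strand, with an AP-1 element, at 317 bases from the gene's start: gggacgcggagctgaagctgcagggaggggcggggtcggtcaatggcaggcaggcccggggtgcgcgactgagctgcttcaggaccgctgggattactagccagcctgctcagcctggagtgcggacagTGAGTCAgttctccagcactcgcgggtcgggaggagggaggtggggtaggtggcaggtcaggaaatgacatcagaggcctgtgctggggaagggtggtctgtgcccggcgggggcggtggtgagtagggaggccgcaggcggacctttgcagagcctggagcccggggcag
Actn1, chr12:80260314-80260613, minus strand, with no match, at 57 bases from the gene's start: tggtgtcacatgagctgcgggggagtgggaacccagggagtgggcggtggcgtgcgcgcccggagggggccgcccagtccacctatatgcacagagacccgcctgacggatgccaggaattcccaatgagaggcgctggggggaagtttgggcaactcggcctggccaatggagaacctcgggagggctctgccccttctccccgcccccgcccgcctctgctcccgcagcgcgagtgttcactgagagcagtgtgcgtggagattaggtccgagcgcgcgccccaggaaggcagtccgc
Itgb5, chr16:33829415-33829714, plus strand, with no match, at 0 bases from the gene's start: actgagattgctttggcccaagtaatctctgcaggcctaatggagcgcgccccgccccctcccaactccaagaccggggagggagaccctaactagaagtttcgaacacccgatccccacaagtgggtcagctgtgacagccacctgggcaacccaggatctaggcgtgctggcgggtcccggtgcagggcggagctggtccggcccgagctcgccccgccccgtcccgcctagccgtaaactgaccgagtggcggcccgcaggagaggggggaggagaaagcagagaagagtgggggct

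Other lists of the pathway were counted in the same fit. Of 39 measured integrin ligands, 24 were called lower and 2 higher in T, and 25 lower and 1 higher in PT. These are 61.5% lower and 5.13% higher in T, beside 15.5% and 16.9% of all gene probe sets, and 64.1% and 2.56% in PT, beside 18.0% and 17.9%. Among probe sets above background, 27.4% in T and 32.0% in PT were lower, and 36.6% and 37.2% higher. Postn (periostin), a ligand of alphav integrins, had means of 5.76 in T, 5.60 in PT, against 15.30 in mVec, lower by at least 88.4-fold in T and by at least 78.1-fold in PT. Lama4, a laminin chain, was at least 36.9-fold and Tgfbi at least 69.2-fold lower in T, and in PT the bounds were 32.6-fold and 61.1-fold. Col3a1, a fibrillar collagen, had means of 9.15 in T, 6.78 in PT, against 15.81 in mVec. The median log2 difference of all measured ligands was -1.57 in T and -2.04 in PT.

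Of 59 other focal adhesion genes measured, 22 were lower and 10 higher in T, and 21 lower and 13 higher in PT. The shares higher were 16.9% in T and 22.0% in PT, beside 16.9% and 17.9% of all gene probe sets. The shares lower were 37.3% and 35.6%, beside 15.5% and 18.0%. Of the 59 genes, 44 were above background on both arrays of at least 1 line. Among all such probe sets, 36.6% in T and 37.2% in PT were higher, and 27.4% and 32.0% lower. Beside that level the shares higher of the 59 genes were smaller, and their share lower in PT was near it. Kank2, a talin-binding protein of the adhesion rim, had means of 7.59 in T, 7.53 in PT, against 11.47 in mVec, lower by at least 6.22-fold in T and by at least 5.50-fold in PT. The vinexin gene Sorbs3, which encodes a vinculin-binding protein, had means of 7.71 in T, 5.77 in PT, against 10.58 in mVec, and its relative Sorbs2 had 5.92, 4.78 and 10.02 in the same order of lines. Elmo1, a partner of the Rac activator Dock1, went the other way, with means of 10.67 in T, 7.65 in PT, against 6.80 in mVec. Its level in T exceeded that in mVec at least 3.17-fold (3.87 ± 0.21, limma adjusted p = 7.67e-07) and that in PT at least 3.15-fold.

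Of 19 measured genes of the SRF and MRTF target list outside the 36 genes, 10 were lower and 2 higher in T. In PT, 8 were lower and 3 higher. This list also names the regulator genes Srf, Mrtfa and Mrtfb, so its counts are not of targets alone. The shares lower were 52.6% in T and 42.1% in PT, beside 15.5% and 18.0% of all gene probe sets. The shares higher were 10.5% and 15.8%, beside 16.9% and 17.9%. In each comparison with mVec, 4 of the 19 were at background in both lines. Among probe sets above background, 27.4% in T and 32.0% in PT were lower, and 36.6% and 37.2% higher. Acta2, smooth muscle actin, had means of 11.50 in T, 8.30 in PT, against 16.63 in mVec, 34.8-fold lower in T (-5.12 ± 0.20, limma adjusted p = 1.07e-07) and at least 196-fold lower in PT. Fhl1, a LIM-domain protein, was lower by at least 3.09-fold in T and by at least 2.73-fold in PT, and Mylk, myosin light chain kinase, had means of 4.94 in T, 4.30 in PT, against 8.72 in mVec. Tpm2, beta-tropomyosin, was higher, at least 2.55-fold in T and at least 1.35-fold in PT.

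**Figure D4:**
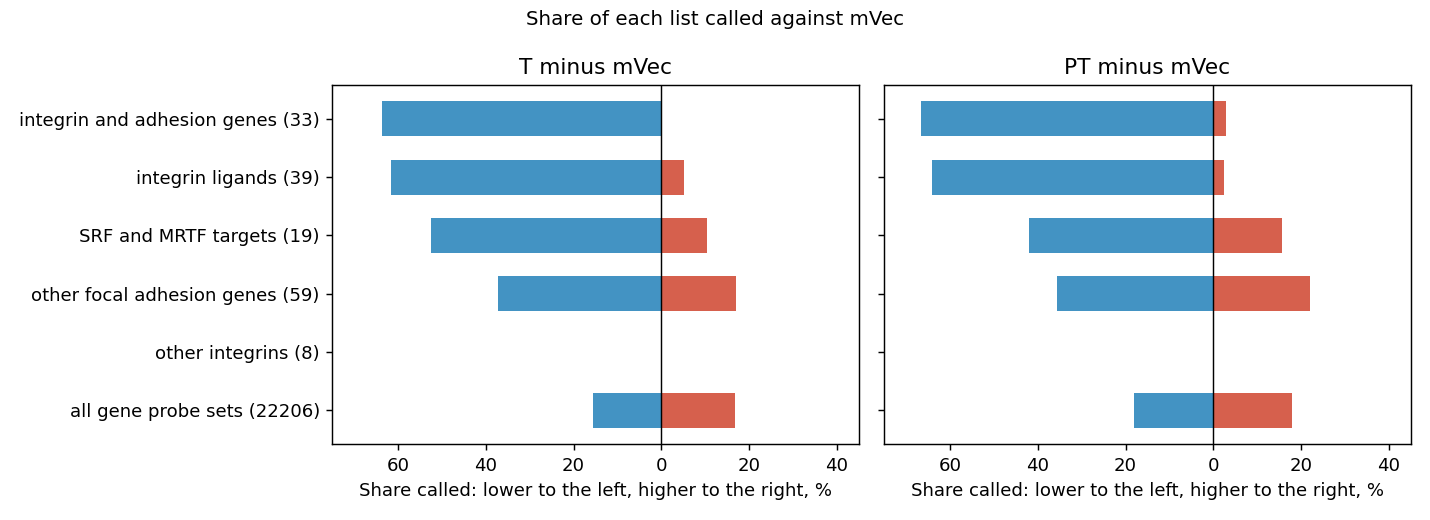
Share of each list called lower (bars to the left of 0) or higher (bars to the right) than mVec in T and in PT, in percent, with the number of genes or probe sets in brackets. The integrin and adhesion genes have 63.6% lower in T and 66.7% in PT, beside 15.5% and 18.0% of all gene probe sets.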

How the data were processed

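RNA of 3 melan-a lines was hybridised to 6 Clariom S arrays, 2 for each line. The deposited series table holds log2 values made by the authors, with a background correction and normalization that no source used here states. The log2 scale was read from the range of the values, 2.42 to 18.16. The 6640 control rows were left out of the fit, and 22206 gene probe sets were kept, of which 19572 had 1 gene symbol and 2634 none in the platform annotation.

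Group means of the 3 lines were fitted together with limma 3.58.1 (R 4.3.3, lmFit and eBayes), and each comparison was adjusted by Benjamini-Hochberg over all gene probe sets. Tests were two-sided, and a gene was called at an adjusted p under 0.05. Errors are standard errors of this fit. Genes called in any comparison and above background are given in full, and the others by level or range. The code was tested on simulated data. Members and lists were chosen with earlier results of these data known. The pathway lists were other integrins, other focal adhesion genes, integrin ligands and SRF and MRTF targets, and the marker lists were melanocyte, fibroblast, smooth muscle, endothelial, leukocyte, keratinocyte and mast cell. Alternatives were median centring, quantile normalization, limma-trend, robust eBayes, only the arrays compared, the replicate number as a block, 2 filters on dim probe sets, leaving out each array, and the mean of all probe sets of a gene, which cannot change a gene with 1 probe set. For each comparison, leaving out an array of the line not compared gave the same fit as only the arrays compared. Such fits are not separate checks, though each is counted among the alternatives. A stricter background limit was tried for the count above background. The number of arrays limits the precision. Running the alternatives on the other lists was chosen after seeing the data. Same-numbered arrays correlated at 0.08, 0.04 and 0.04 in their deviations from the group means, so the numbers were not taken to pair the arrays.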

Additional observations from a re-analysis of the deposited data

Results flagged for a closer look

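For 4 genes the effect against mVec differed between the Kit-labelled lines by a limma test of T minus PT, adjusted over all gene probe sets. These 4 of 33 genes stand beside 8.36% of all gene probe sets called. All 4 were among the 23 genes above background, a share near the 18.0% called of all probe sets above background. The log2 difference was -2.46 for Actn1, -1.22 for Itga6, 1.30 for Itgb5 and 0.81 for Flna. Actn1 was the 1 gene of these whose effects had opposite signs, at -1.07 in T and 1.39 in PT. The other three were lower than mVec in both lines by value, Itga6 more so in T, and Itgb5 and Flna more so in PT. With 1 array left out, the calls for Itga6, Itgb5 and Flna did not hold in every fit, while that for Actn1 did. The T minus PT difference then ran from -1.49 to -0.94 for Itga6 and from 1.08 to 1.53 for Itgb5. It ran from 0.76 to 0.86 for Flna and from -2.74 to -2.18 for Actn1. The fits without an mVec array equal the fit of only the arrays compared and are not separate checks.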

How the results depend on the processing

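No difference of the 33 genes that was called changed sign under any alternative run. Calls held in all alternatives for 17 of 21 genes in T against mVec, 20 of 23 in PT against mVec, and 1 of 4 (Actn1) between T and PT. Genes called higher in PT than in mVec numbered 2 with each array centred on its median and 2 among probe sets above background, with Bcar1 added. Between T and PT, 7 genes were called (4 higher) with limma-trend and with either filter on dim probe sets, and 1 was called higher with only the arrays compared. Limma-trend called 950 probe sets lower between T and PT. Leaving out 1 array gave 549 to 1714 probe sets between T and PT, 370 to 1119 higher and 176 to 595 lower, and 1 to 3 of the 33 genes, 0 to 1 higher and 1 to 2 lower. Median centring moved all differences by 0.18 in T and 0.19 in PT, and the share of calls that were higher became 62.3% in T, against 52.3% uncentred, and 60.3% in PT, against 49.9%. The 99th percentile as background limit left 12 genes above background. With the replicate block, 21, 24 and 4 of the 33 genes were called for T against mVec, PT against mVec and T against PT. The cause of these changes was not tested.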
